A study of Homo sapiens with 8 samples.

Results

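Forkhead genes encode transcription factors that share a winged helix DNA-binding domain. They act in germ layer formation, organ development, metabolism and the cell cycle, and FOXA proteins are textbook pioneer factors that bind closed chromatin. In human embryonic stem cells FOXD3 is known as a pluripotency gene and FOXO1 as a regulator of OCT4 and SOX2 expression. Here the question was where SOX2, OCT4 and NANOG, the core factors of the pluripotent state, had binding peaks around the forkhead genes themselves. Of the 19628 genes named beside a peak in the deposited lists, 37 forkhead genes were examined. A peak was tied to a gene when the submitters listed it as a neighbour and its edge lay at most 50 kb from the transcription start, which gave 473 of 201619 peaks. A peak between 2 forkhead genes was tied to both, which happened for 15 peaks.

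The series mapped the 3 factors by ChIP-seq in NT2/D1, an embryonal carcinoma line labelled as a human germ cell tumour, and in H9, an embryonic stem cell line. No genotype change, agent or time course is named in the labels. There was 1 library per factor and line, and IgG libraries served as background, shared by the 3 H9 lists and by the NT2/D1 SOX2 and NANOG lists. Without replicates no difference between libraries could be tested, and intervals cover counting error only. Peak lists carry no expression values, so the identity of the lines was not checked against their marker genes.

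The lists differed in ways that touch every comparison between the lines. The NT2/D1 libraries had 10218752 to 23160564 unique tags and the H9 libraries 54046559 to 77649240, per the file headers. The IgG background had 2937004 unique tags for NT2/D1 SOX2 and NANOG, 6479071 for NT2/D1 OCT4 and 58012070 for H9. The peak caller ran with a band width of 200 in NT2/D1 and 2000 in H9. Its model fold setting was 5 for NT2/D1 OCT4 and 3 for the other lists. The source names of the NT2/D1 OCT4 and NANOG libraries give each the other's factor; titles and descriptions are followed here. With fewer tags per library in NT2/D1, a factor that was not called at a site there is not shown to be absent. Folds, tag counts and scores are the authors' values, and where a list had more than 1 peak in a region, those of its highest-scoring peak are given. The score percentile of a peak is the share of its own list with the same or a lower score, and it is the quantity set side by side between lists.

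Most forkhead genes had peaks of the pluripotency factors. In NT2/D1, 33 of the 37 genes (89.2%) had an OCT4 peak within 50 kb, beside 75.7% of all genes in the lists. SOX2 peaks lay at 28 (75.7%, all genes 55.1%) and NANOG peaks at 23 (62.2%, all genes 55.3%). Limited to an FDR of at most 5%, the NT2/D1 OCT4 count fell to 20 genes. No share of all genes was computed at that limit. In H9, 31 genes had an OCT4 peak (83.8%, all genes 55.4%), 31 had a NANOG peak (83.8%, all genes 54.2%) and 20 had a SOX2 peak (54.1%, all genes 33.6%). The distance between the shares of forkhead genes and of all genes was thus wider in H9 for OCT4 and NANOG, and about equal in the lines for SOX2. The NT2/D1 NANOG share was the nearest to that of all genes. At least 1 peak of any factor was tied to 35 of the 37 genes in each line, beside 89.3% of all genes in NT2/D1 and 74% in H9. FOXP2 and FOXD4 had none in NT2/D1, and FOXA3 and FOXE3 had none in H9. FOXD4 has near-identical copies elsewhere in the genome, so its peaks are uncertain.

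**Figure D1:**
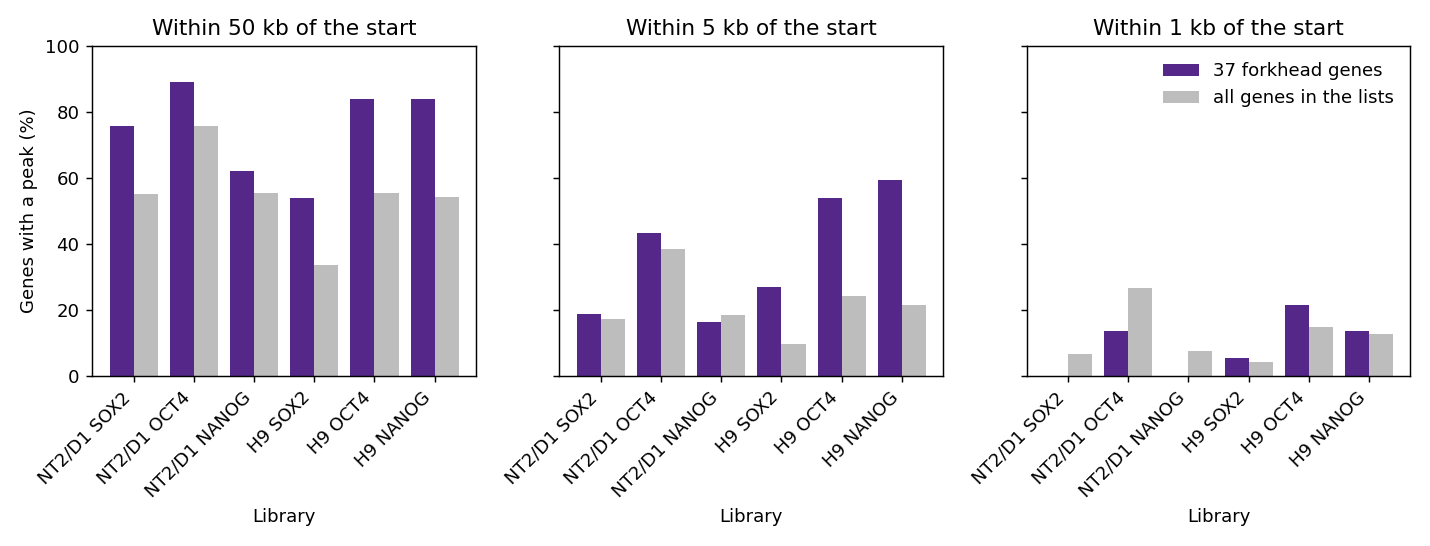
Share of genes (%) with a peak within 50, 5 or 1 kb of the start in each library, for the 37 forkhead genes and for all genes named in the lists. In H9 the forkhead bars stand above the grey bars at 50 and 5 kb for each factor, while in NT2/D1 the 1 kb shares of the forkhead genes are below those of all genes.

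Forkhead genes have room for more peaks than the average gene, since a peak is tied only to the nearest start it lies upstream of and the nearest it lies downstream of. The stretch in which a peak could be tied to a gene had a median of 94.5 kb (17 to 100) for the 37 genes and 82.5 kb for 18288 genes with a recovered start. It was taken around a single start per gene, while peaks tied to any annotated start were counted. Some counted peaks thus lie outside it, as at the other start of FOXN3. The part of such peaks in the densities was not tested. Per Mb of this stretch, NT2/D1 SOX2 had 19.96 peaks at forkhead genes and 16.7 at all genes, NT2/D1 OCT4 29.6 and 22.5, and NT2/D1 NANOG 21.6 and 16.5. The H9 densities were 16.1 and 6.86 for SOX2, 38.3 and 13.9 for OCT4, and 31.5 and 13.6 for NANOG. Peak density at forkhead genes was therefore above that of all genes in all 6 lists, by a wider margin in the 3 H9 lists.

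**Figure D2:**
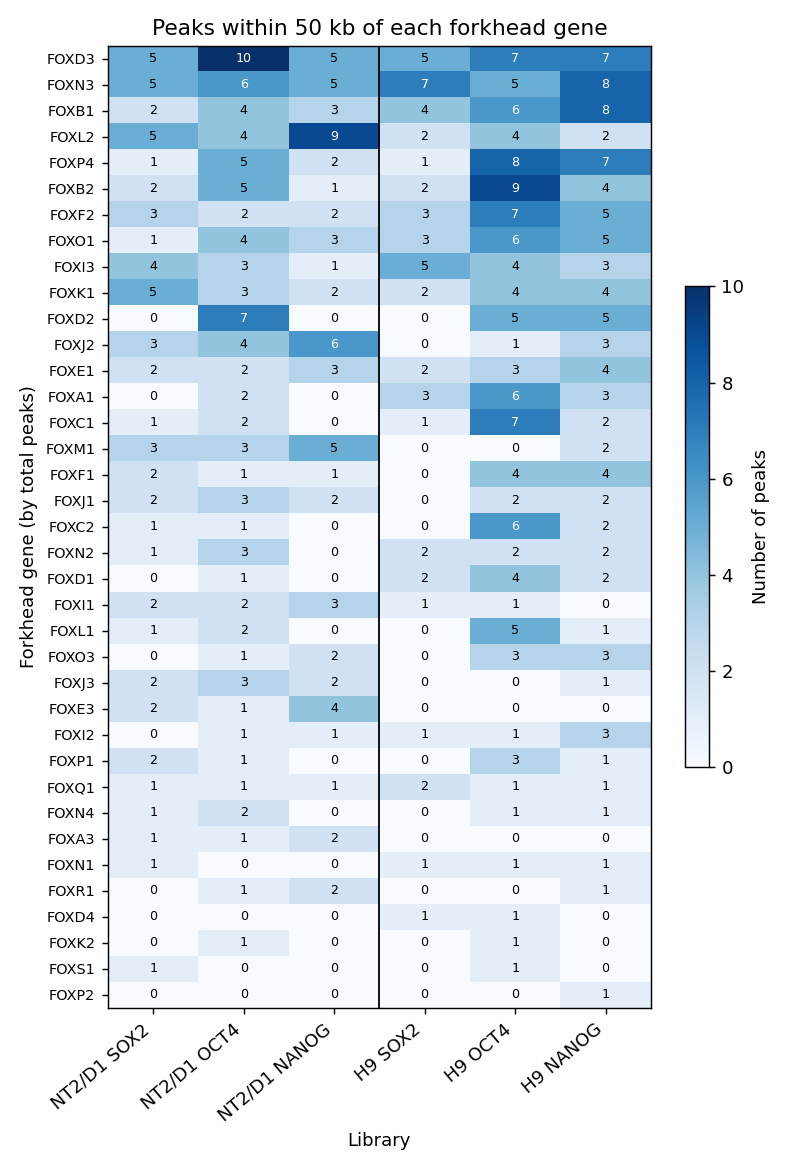
Number of peaks within 50 kb of each forkhead gene (rows, by total) in each library (columns). FOXD3 and FOXN3 lead, FOXL2, FOXJ2 and FOXM1 have more peaks in NT2/D1 than in H9 (18, 13 and 11 against 8, 4 and 2), and FOXC1, FOXC2, FOXA1 and FOXD1 fewer (3, 2, 2 and 1 against 10, 8, 12 and 8).

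Regions in which the peaks of all 3 factors overlapped lay at 17 of the 37 genes. In NT2/D1 there were 10 such genes (27%), beside 5.62% of all genes, and in H9 15 (40.5%), beside 17.1%. FOXB2, FOXD3, FOXF2, FOXK1, FOXL2, FOXN3, FOXO1 and FOXQ1 had a region in both lines (8 genes, 21.6%, all genes 3.55%). FOXJ2 and FOXM1 had one in NT2/D1 only (2 genes, 5.41%, all genes 2.07%). FOXB1, FOXC1, FOXD1, FOXE1, FOXI3, FOXN2 and FOXP4 had one in H9 only (7 genes, 18.9%, all genes 13.6%). The remaining 20 genes had none in either line. FOXF2 and FOXQ1 share the same region, which is counted for each gene, and the FOXL2 regions of the lines lie at different places. The shares of all genes were counted by the same rule. When peaks of all 6 lists were merged, 8 of the 292 regions at forkhead genes held a peak of every list. This share was 2.74% (95% Wilson interval 1.39 to 5.31), beside 0.823% of all 148059 regions at any distance from a gene. The forkhead regions were limited by distance to a start and the regions set beside them were not. The part of that limit in the difference was not tested.

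FOXD3, the pluripotency and neural crest gene, carried the most peaks, with 10 OCT4, 5 SOX2 and 5 NANOG peaks in NT2/D1 and 7, 5 and 7 for the same factors in H9. All coordinates given here are hg19. The start of FOXD3 lies at position 63788729 of chromosome 1, as recovered from the deposited distances. There were 5 sites with peaks of all 3 factors in H9. The farthest lay 27.4 kb upstream (63760249 to 63761279) and was called in every list. It had 48, 29 and 18 tags for SOX2, OCT4 and NANOG in NT2/D1 (folds 13.02, 10.47 and 7.07) and 95, 91 and 137 tags in H9 (folds 9.94, 7.03 and 12.64). The other site called in every list lay 7.31 kb downstream (63796039 to 63797099), with 18, 17 and 22 tags in NT2/D1 (folds 6.29, 5.01 and 10.57) and 130, 81 and 215 tags in H9 (folds 15.64, 7.08 and 31.37). At these 2 sites all 3 factors were called in both lines.

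The sites between them were called for all 3 factors in H9 and for some in NT2/D1. At 22.9 kb upstream (63764617 to 63765828), NT2/D1 had 22 SOX2 tags and 37 NANOG tags (folds 8.43 and 18.79) and no OCT4 peak, while H9 had 225, 99 and 235 tags (folds 21.9, 5.84 and 21.5). At 17.3 kb upstream (63770226 to 63771425), NT2/D1 had 21 SOX2 and 14 OCT4 tags (folds 7.28 and 11.94) and no NANOG peak, while H9 had 108, 95 and 67 tags (folds 9.31, 5.52 and 5). The site closest to the start, 546 bp upstream at its nearest (63787008 to 63788183), held an NT2/D1 OCT4 peak of 29 tags (fold 5.34), and H9 peaks of 76, 80 and 99 tags for the 3 factors (folds 4.12, 3.7 and 7.09). For SOX2 and OCT4 this start-proximal site had the lowest H9 folds of the 5 sites.

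**Figure D3:**
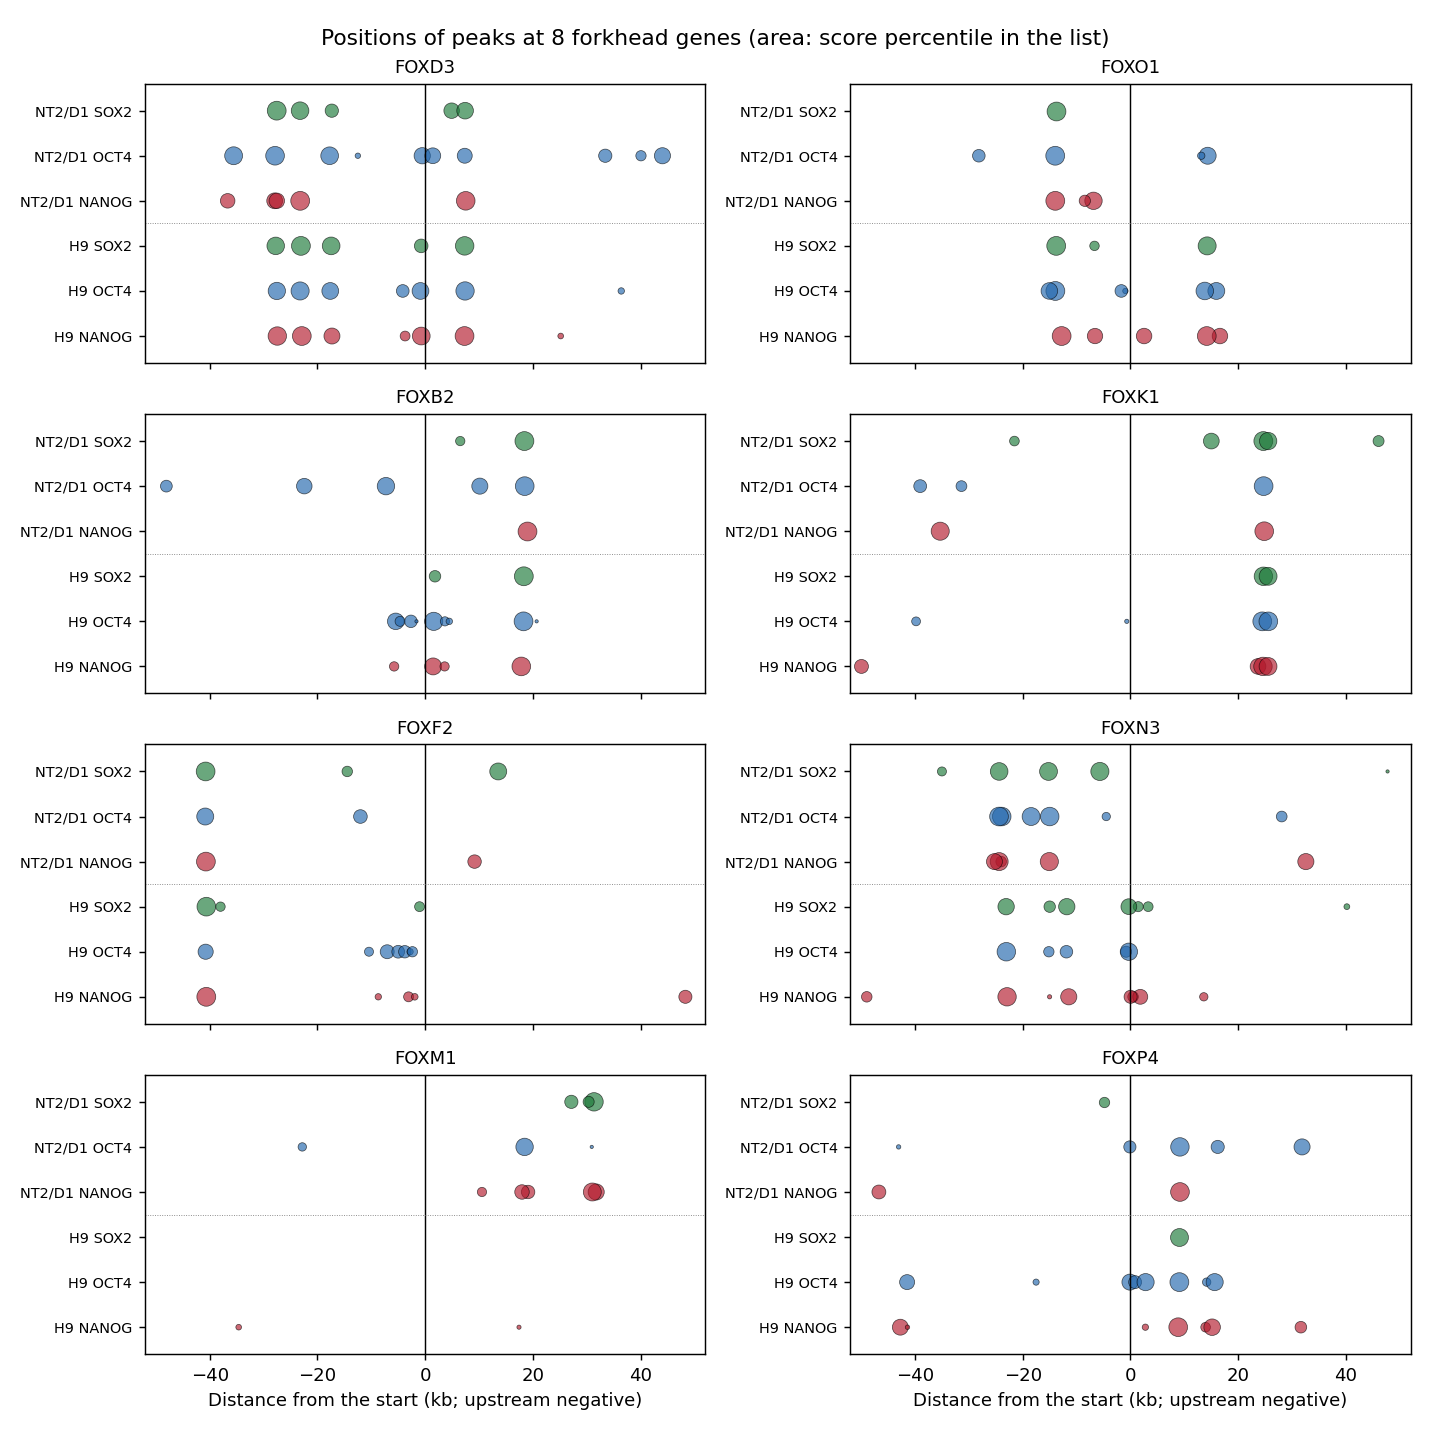
Distance of each peak from the start (kb, upstream negative) at 8 forkhead genes, with 1 row per library and dot area by score percentile within the list. Columns of dots in all 6 rows mark sites called in every list, as 27.4 kb upstream of FOXD3, 12.8 kb upstream of FOXO1 and 24.5 kb downstream of FOXK1; distances at FOXN3 refer to 2 annotated starts.

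Among the broadly expressed forkhead genes, FOXO1 had a site near the top of every list. FOXO proteins are held in the cytoplasm by AKT signalling and act on metabolism, stress resistance and survival. The site 12.8 kb upstream of FOXO1 (chromosome 13, 41253503 to 41255637) had 38, 42 and 38 tags for SOX2, OCT4 and NANOG in NT2/D1, with folds of 15.57, 21.25 and 19.65. H9 had 174, 142 and 312 tags there, with folds of 24.44, 16.07 and 33.22. In each of the 6 lists these peaks stood above the 98th score percentile, from 98.96 for NT2/D1 SOX2 to 99.5 for H9 OCT4, and of all forkhead peaks this one ranked highest for OCT4 and NANOG in NT2/D1 and for OCT4 in H9. A site 13.8 kb downstream (41225784 to 41226921) had an NT2/D1 OCT4 peak of 14 tags (fold 9.99), and H9 peaks of 78, 98 and 157 tags (folds 9.04, 4.95 and 21.96).

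FOXK1, which encodes a regulator of metabolism and autophagy, had its strongest site 24.5 kb downstream of the start (chromosome 7, 4746412 to 4748388). NT2/D1 had 63, 126 and 32 tags for SOX2, OCT4 and NANOG (folds 20.18, 17.27 and 12.25), and H9 had 103, 132 and 106 tags (folds 15.06, 11.41 and 16.82). The OCT4 counts of the 2 lines were close, although the NT2/D1 OCT4 library had 10218752 unique tags and the H9 one 77649240, and the NT2/D1 peak was longer (1674 against 998 bp) and overlapped 2 separate H9 OCT4 peaks, of 132 and 79 tags. For SOX2 it was the highest-scoring forkhead peak in NT2/D1, at percentile 99.6. FOXN3, a checkpoint-linked repressor gene with 2 annotated starts, had 16 peaks in NT2/D1 and 20 in H9. Peaks of all 6 lists lay at 2 sites, 14.98 and 22.9 kb upstream of a start. At the nearer (chromosome 14, 89898436 to 89899103) NT2/D1 had 13, 17 and 14 tags (folds 10.41, 16.16 and 14.25), and H9 had 36, 30 and 29 tags (folds 4.69, 3 and 4.89). At the more distant (89906355 to 89909046) NT2/D1 had 13, 24 and 14 tags (folds 7.29, 13.29 and 7.77), and H9 had 183, 237 and 316 tags (folds 4.89, 4.32 and 6.82). All of these H9 folds but the last were below the medians of their lists, 4.52 for OCT4, 5.19 for SOX2 and 5.11 for NANOG.

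The same group held the genes with a 3-factor region in NT2/D1 alone. FOXM1, which drives mitotic gene expression, had 11 peaks in NT2/D1 and 2 in H9. Its region lay 30.4 kb downstream (chromosome 12, 2953759 to 2955951), with 46, 21 and 24 tags for SOX2, OCT4 and NANOG in NT2/D1 (folds 4.53, 5.57 and 5.8). The OCT4 peak there stood at score percentile 0.882, while SOX2 and NANOG stood at 94.6 and 89.99. FOXJ2, a widely expressed activator gene, had 13 peaks in NT2/D1 and 4 in H9. Its region 5.29 kb downstream of the start (8190643 to 8192477) had 49, 22 and 22 tags in NT2/D1 (folds 4.35, 5.94 and 4.7), with NANOG at percentile 5.74, and H9 had a NANOG peak of 35 tags there (fold 3.51). All 6 of these NT2/D1 folds were below the medians of their lists, which were 8.71 for OCT4, 6.25 for SOX2 and 7.04 for NANOG. Both genes lie on chromosome 12, where all peaks numbered 9557 in NT2/D1 and 4039 in H9, a ratio of 2.37 beside 1.43 over all chromosomes. The part of the chromosome in these counts was not tested.

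FOXN2 had a 3-factor region in H9, 30.3 kb upstream, and in NT2/D1 an OCT4 peak of 13 tags there (fold 21.98). Its strongest OCT4 peaks lay 8.53 kb downstream in NT2/D1 (30 tags, fold 19.06) and 8.26 kb downstream in H9 (90 tags, fold 10.61). FOXO3, a longevity-associated relative of FOXO1, had 3 NT2/D1 and 6 H9 peaks, the strongest for H9 NANOG (117 tags, fold 10.68, percentile 87). FOXJ3 had 7 NT2/D1 peaks and 1 H9 peak, and FOXK2 had 1 in each line.

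Genes of mesoderm and stroma had fewer pairs of a peak and a gene in NT2/D1, 28 over the 8 genes, than in H9, with 66. All 37 forkhead genes had 221 and 267 such pairs. The chromosomes of the 8 genes had NT2/D1 to H9 ratios of all peaks from 0.597 (chromosome 6) to 2.62 (chromosome 1). The part of the chromosome and of depth in the totals was not tested. Peaks shared by FOXC2 and FOXL1 count once for each gene in these totals. FOXF2 and FOXQ1, which lie side by side on chromosome 6, share a site called in every list; FOXQ1 is counted among the ectoderm genes. FOXF2 acts in gut and craniofacial mesenchyme, and FOXQ1 in epithelia and hair. The shared site lies 40.6 kb upstream of FOXF2 and 35.8 kb downstream of FOXQ1 (1348486 to 1349445), so it is 1 observation for 2 genes. NT2/D1 had 27 SOX2, 8 OCT4 and 26 NANOG tags (folds 14.86, 8.59 and 14.09), and H9 had 132, 37 and 210 tags (folds 21.57, 5.43 and 33.13). OCT4 had the lowest rank of the factors in both lines, at percentile 80.6 in NT2/D1 and 64.2 in H9, while SOX2 and NANOG were between 97.8 and 99.3. The 8 OCT4 tags in NT2/D1 have an exact 95% Poisson interval of 3.45 to 15.8.

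FOXC1, a regulator of eye, heart and vessel development, had 3 peaks in NT2/D1 and 10 in H9, of which 7 were OCT4 peaks. Its H9 region 2.26 kb upstream of the start (chromosome 6, 1607006 to 1608421) had 64, 61 and 94 tags (folds 3.12, 6.06 and 5.68), and NT2/D1 had a SOX2 peak of 14 tags and an OCT4 peak of 18 tags there (folds 5.2 and 13.04). FOXD1, a marker of kidney stroma, had 1 peak in NT2/D1, for OCT4 (12 tags, fold 12.82), at the site where H9 had 88, 65 and 64 tags 4.07 kb downstream (chromosome 5, 72739307 to 72740279; folds 14.46, 9.03 and 8.14). FOXC2 and FOXL1, neighbours on chromosome 16, had 2 and 3 peaks in NT2/D1 and 8 and 6 in H9. They shared 1 NT2/D1 peak and 6 H9 peaks. FOXD2 had peaks of OCT4 alone in NT2/D1 (7) and of OCT4 and NANOG in H9 (5 each). FOXF1 had 4 NT2/D1 and 8 H9 peaks, and FOXS1 had 1 in each line.

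The 2 endoderm genes examined, FOXA1 and FOXA3, had no 3-factor region, beside 5.62% of all genes with one in NT2/D1 and 17.1% in H9. FOXA2 was not among the 37 genes. With 2 genes, nothing about endoderm genes as a group is read from this. FOXA1, a pioneer factor of endoderm and its organs, had 2 NT2/D1 peaks, both for OCT4, and 12 H9 peaks. The strongest was an NT2/D1 OCT4 peak of 6 tags (fold 10.22, percentile 58.4), and in H9 an OCT4 peak of 37 tags (fold 4.97, percentile 76.1). FOXA3, a liver-enriched relative, had 4 NT2/D1 peaks, none above percentile 28.7, and 0 in H9.

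Among the genes of ectoderm, sensory organs, cilia and gonad, FOXB2, a gene of the developing brain, had a site near the top of every list. It lay 17.8 kb downstream of the start (chromosome 9, 79652417 to 79654424), with 48, 52 and 24 tags for SOX2, OCT4 and NANOG in NT2/D1 (folds 16.04, 10.3 and 29.45) and 289, 149 and 223 tags in H9 (folds 16.17, 8.13 and 12.62). Its percentiles ran from 97.1 for H9 NANOG to 99.5 for NT2/D1 SOX2, so the site was among the upper 3% of each list. FOXB2 also had a 3-factor region in H9 at 1.48 kb downstream, with no NT2/D1 peak. FOXB1, expressed in the early neural tube, had 3 such regions in H9 and none in NT2/D1, where OCT4 and NANOG peaks of 7 to 15 tags lay in 2 of them. The H9 peaks 7.94 kb upstream of FOXB1 had 123, 143 and 128 tags (chromosome 15, 60287288 to 60288477; folds 7.2, 7.94 and 9.19).

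FOXI3, a placode gene of ear and teeth, had 8 NT2/D1 and 12 H9 peaks. At 35.6 kb downstream (chromosome 2, 88715331 to 88716407) NT2/D1 had 22 SOX2 and 27 OCT4 tags (folds 12.03 and 14.29), and H9 had 92, 92 and 125 tags (folds 9.44, 8.71 and 13.66). FOXE1, a thyroid gene, had an NT2/D1 OCT4 peak of 34 tags (fold 15.93) 20.1 kb downstream, where H9 had 59, 63 and 44 tags (chromosome 9, 100635579 to 100636231; folds 12.26, 14.45 and 9.25). FOXL2, which maintains ovarian granulosa cell identity, had 3-factor regions in both lines but at different places. The NT2/D1 region lay 31.6 kb downstream (chromosome 3, 138633509 to 138634364) with 26, 14 and 8 tags (folds 7.21, 7.4 and 8.96), where H9 had 31 OCT4 and 20 NANOG tags (folds 4.45 and 4.44). The H9 region lay 1.51 kb upstream (138667493 to 138668946) with 56, 83 and 88 tags (folds 4.42, 4.78 and 5.83), and NT2/D1 had no peak in it. FOXL2 had 18 NT2/D1 peaks, 9 of them for NANOG, and 8 H9 peaks. FOXE3, a lens gene, had 7 NT2/D1 peaks and 0 H9 peaks. FOXJ1, the regulator of motile cilia, had 7 and 4, and FOXI1, a gene of inner ear and kidney, had 7 and 2. FOXN1, FOXN4, FOXI2, FOXR1 and FOXD4 had 0 to 3 peaks in any list.

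Of the FOXP genes, which encode transcriptional repressors that act in lung, brain and immune development, FOXP4 had a strong site 8.87 kb downstream of the start (chromosome 6, 41523036 to 41524177). NT2/D1 had 18 OCT4 and 29 NANOG tags there (folds 16.08 and 9.86) and no SOX2 peak, and H9 had 104, 137 and 185 tags (folds 11.07, 9.96 and 22.31). FOXP1 had 3 NT2/D1 and 4 H9 peaks. FOXP2 had a single peak over all lists, for H9 NANOG.

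At the 7 genes whose 3-factor regions were called in H9 only, OCT4 was the factor most often called in NT2/D1. An NT2/D1 OCT4 peak lay in such a region at 7 of 7 genes and in 8 of 11 regions, a NANOG peak at 2 genes (3 regions) and a SOX2 peak at 2 genes (2 regions). Over all 2670 genes with such regions in H9 only, an NT2/D1 OCT4 peak lay there at 50.5%, a NANOG peak at 10.5% and a SOX2 peak at 17.5%, so OCT4 was the most frequent factor over all genes too. With 7 genes, nothing particular to the forkhead genes is read from these counts. The NT2/D1 OCT4 list is also the longest, with 46169 peaks beside 34208 for NANOG and 38423 for SOX2, and by the source names it would be the NANOG list. Its IgG background and model fold setting also differed from those of the NT2/D1 SOX2 and NANOG lists.

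**Figure D4:**
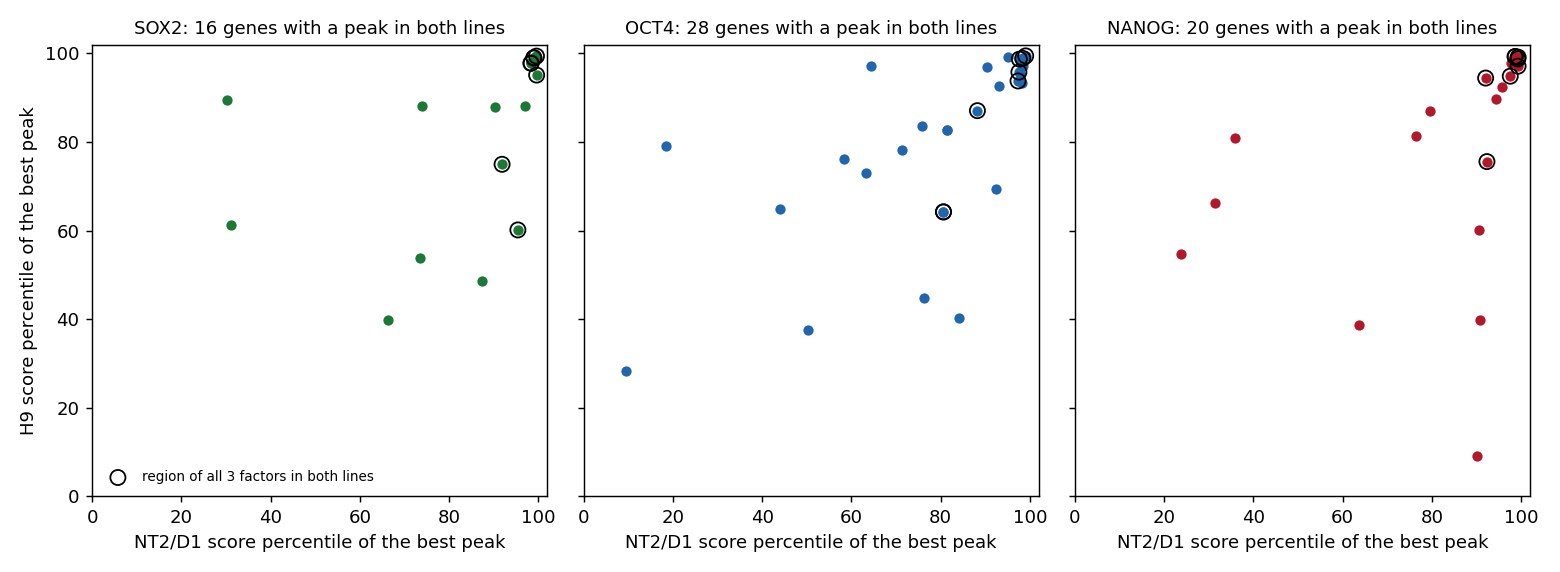
Score percentile of the highest-scoring peak of each forkhead gene in NT2/D1 (x) and H9 (y), per factor, for genes with a peak of that factor in both lines. Ringed genes have a region of all 3 factors in both lines; FOXL2 and the pair FOXF2 and FOXQ1 (OCT4 at 80.6 and 64.2) are those away from the upper right corner, with SOX2 at FOXN3 (91.8 and 75).

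Peaks at forkhead genes ranked high in their lists more often than other peaks within 50 kb of a gene. In NT2/D1, 25.8% of the NANOG, 20.2% of the OCT4 and 21.3% of the SOX2 peaks were in the upper 10% by score, beside 9.82%, 9.08% and 10.2% of all such peaks. In H9 the shares were 11.5%, 14.2% and 16.7% in the same order, beside 8.31%, 7.91% and 9.49%. These H9 shares rest on 11 of 96 NANOG, 16 of 113 OCT4 and 8 of 48 SOX2 peaks. No interval was computed for the shares in the upper 10%. The median percentile was less apart, from 51.9 (NT2/D1 SOX2) to 58.8 (NT2/D1 OCT4) at forkhead genes, beside 46.4 to 51.1 over all genes. Counted by gene, a peak of the upper 10% lay in NT2/D1 at 12 forkhead genes for SOX2 (32.4%, all genes 10.5%), 13 for OCT4 (35.1%, all genes 12.9%) and 14 for NANOG (37.8%, all genes 9.92%). In H9 it did at 7 for SOX2 (18.9%, all genes 4.38%), 12 for OCT4 (32.4%, all genes 6.86%) and 9 for NANOG (24.3%, all genes 7.3%).

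Overlap with a peak of the same factor in the other line was counted next. Of the NT2/D1 peaks at forkhead genes, 24.6% for SOX2 (95% Wilson interval 15.5 to 36.7), 32.6% for OCT4 (23.7 to 42.9) and 30.3% for NANOG (20.6 to 42.2) overlapped an H9 peak, beside 7.42%, 15.7% and 9.11% of all peaks within 50 kb of a gene. Of the H9 peaks, 31.2% for SOX2 (19.9 to 45.3), 25.7% for OCT4 (18.5 to 34.4) and 18.8% for NANOG (12.2 to 27.7) overlapped an NT2/D1 peak, beside 16.7%, 24.8% and 9.86%. The interval for H9 OCT4 held the share of all genes, and the other 5 lay above it. Peaks at 1 gene are not independent of each other, so these intervals are too narrow.

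Few peaks lay at the starts. In NT2/D1, an OCT4 peak lay within 1 kb of 5 of the 37 genes (13.5%, all genes 26.5%), and no SOX2 or NANOG peak did (all genes 6.52% and 7.53%). In H9 the counts within 1 kb were 8 for OCT4 (21.6%, all genes 14.9%), 5 for NANOG (13.5%, all genes 12.7%) and 2 for SOX2 (5.41%, all genes 4.29%). Within 5 kb the H9 shares stood above those of all genes for each factor, with NANOG peaks at 22 genes (59.5%, all genes 21.5%), OCT4 peaks at 20 (54.1%, all genes 24.1%) and SOX2 peaks at 10 (27%, all genes 9.6%). The NT2/D1 counts within 5 kb were 6 for NANOG (16.2%, all genes 18.4%), 16 for OCT4 (43.2%, all genes 38.5%) and 7 for SOX2 (18.9%, all genes 17.3%), close to the share of all genes. Peaks fell on both sides of the starts, with 45.9% to 50.4% upstream in the 6 lists.

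A peak over the start itself was found at 2 forkhead genes. FOXJ3 had an NT2/D1 OCT4 peak of 24 tags (chromosome 1, 42800808 to 42801349, fold 12.68), which made 1 gene in that list (2.7%, all genes 10.1%). FOXP2 had an H9 NANOG peak of 47 tags (chromosome 7, 114054312 to 114055233, fold 4.83), or 1 gene in that list (2.7%, all genes 4.59%). The other lists had 0, beside 0.999% and 1.15% of all genes for SOX2 and NANOG in NT2/D1, and 1.46% and 3.38% for SOX2 and OCT4 in H9. At FOXP4, OCT4 peaks lay 98 bp upstream of the start in NT2/D1 (7 tags, fold 7.09) and 89 bp upstream in H9 (33 tags, fold 4.6), and they overlapped. Apart from these and the FOXD3 peaks given above, the peaks within 1 kb were each called in 1 line. In NT2/D1 they were OCT4 peaks at FOXL1, a gene of gut mesenchyme (273 bp, 11 tags, fold 9.42), and FOXD2 (802 bp, 13 tags, fold 7.21). In H9, OCT4 peaks lay at FOXL2 (430 bp), FOXK1 (674 bp), FOXA1 (807 bp), FOXP4 (873 bp), FOXO1 (931 bp) and FOXO3 (988 bp), with 15 to 33 tags, and NANOG peaks at FOXP1 (363 bp, 35 tags) and FOXE1 (432 bp, 28 tags). FOXN3 had H9 peaks of each factor within 1 kb of a start, the nearest for NANOG at 36 bp (49 tags, fold 4.73). All of these H9 peaks but that of FOXP1 and those of OCT4 and SOX2 at 281 and 289 bp from a FOXN3 start stood below score percentile 50 in their lists.

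The promoter sequences of FOXD3, FOXP4, FOXJ3 and FOXP2 are shown because both lines had a peak near the start of FOXD3 and FOXP4, and FOXJ3 and FOXP2 had one over it. They are from RefSeq (GRCh38.p14), from 250 bases before to 50 after a start, 5′ to 3′ on the strand of the gene. Their positions are chr1:63322317-63322616 (plus strand) for FOXD3, chr6:41546131-41546430 (plus) for FOXP4, chr1:42335831-42336130 (minus) for FOXJ3 and chr7:114414565-114414864 (plus) for FOXP2. That start may be another than the one used in the hg19 lists, so it is not known which of these letters lie under a peak. Capitals mark a match to a motif searched, with CTTTGTT in FOXD3, TAATGG in FOXP2 and none in the others.
FOXD3: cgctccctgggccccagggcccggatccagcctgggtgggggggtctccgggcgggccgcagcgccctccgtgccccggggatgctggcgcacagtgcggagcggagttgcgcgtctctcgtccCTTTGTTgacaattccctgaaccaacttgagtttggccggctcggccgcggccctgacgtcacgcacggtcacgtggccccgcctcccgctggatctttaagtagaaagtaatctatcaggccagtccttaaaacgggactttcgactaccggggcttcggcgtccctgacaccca
FOXP4: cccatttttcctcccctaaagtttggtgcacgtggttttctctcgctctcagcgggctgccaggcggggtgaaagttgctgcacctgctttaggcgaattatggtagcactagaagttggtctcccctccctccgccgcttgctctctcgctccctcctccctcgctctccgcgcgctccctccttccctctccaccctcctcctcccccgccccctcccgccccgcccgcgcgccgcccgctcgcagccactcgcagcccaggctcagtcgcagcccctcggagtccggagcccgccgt
FOXJ3: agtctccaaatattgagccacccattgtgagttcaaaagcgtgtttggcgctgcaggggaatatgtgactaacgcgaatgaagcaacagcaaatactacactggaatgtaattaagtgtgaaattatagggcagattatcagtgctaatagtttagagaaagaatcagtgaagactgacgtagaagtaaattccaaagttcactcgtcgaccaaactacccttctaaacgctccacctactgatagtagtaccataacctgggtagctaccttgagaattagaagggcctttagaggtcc
FOXP2: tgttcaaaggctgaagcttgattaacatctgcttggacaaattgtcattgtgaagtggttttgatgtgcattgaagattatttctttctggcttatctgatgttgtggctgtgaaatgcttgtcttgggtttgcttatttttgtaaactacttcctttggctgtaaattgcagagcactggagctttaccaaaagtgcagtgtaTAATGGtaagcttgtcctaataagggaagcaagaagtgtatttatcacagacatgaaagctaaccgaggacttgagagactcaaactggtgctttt

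The motifs searched, on both strands, were the octamer ATGCAAAT, the composite SOX2 and OCT4 motif (which can overlap the octamer), the SOX words CATTGTT and CTTTGTT, the homeodomain words TAATGG and TAATTG, and the forkhead word TGTTTAC. A promoter sequence was matched by symbol for 29 of the 37 genes. CTTTGTT was in the promoters of FOXD3 (126 to 120 bases before the start) and FOXA1, or 2 of 29, beside 5.28% of 27305 promoters of this length. TAATGG was in that of FOXP2, 46 to 41 bases before the start (1 of 29, all promoters 6.87%), and TAATTG in that of FOXA1 (1 of 29, all promoters 7.58%). ATGCAAAT (1.8% of all promoters), CATTGTT (3.38%), the forkhead word TGTTTAC (3.41%) and the composite (0.0146%) were in none of the 29. The forkhead promoters had a median GC content of 69.3%, from 38.7% at FOXP2 to 84.3% at FOXK1, beside 58.3% over all promoters.

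The balance between the lines was opposite to that of the lists as a whole. At any distance from a gene, the lists held 118800 NT2/D1 and 82819 H9 peaks, a ratio of 1.43. Distinct peaks within 50 kb of forkhead genes numbered 216 in NT2/D1 and 257 in H9, a ratio of 0.84. Under the same 50 kb rule, pairs of a peak and a gene numbered 80443 and 49655 over all genes, a ratio of 1.62. Forkhead genes had 221 and 267 such pairs, a ratio of 0.83. More peaks in NT2/D1 than in H9 were tied to 11 genes, fewer to 23, and equal numbers to 3. The 11 genes lie on chromosomes with a median ratio of 2.37 and the 23 on chromosomes with a median of 1.5. FOXE3 and FOXJ3 are on chromosome 1 (ratio 2.62) and FOXJ2, FOXM1 and FOXN4 on chromosome 12 (2.37), while FOXC1, FOXF2, FOXP4 and FOXO3 are on chromosome 6 (0.597). FOXI1 went against its chromosome, with 7 NT2/D1 and 2 H9 peaks on chromosome 5, where the ratio was 0.652. Among the genes with fewer peaks in NT2/D1, FOXD2 and FOXD4 lie on chromosomes with ratios of 2.62 and 1.89. How much the chromosome adds to a gene's balance was not tested.

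**Figure D5:**
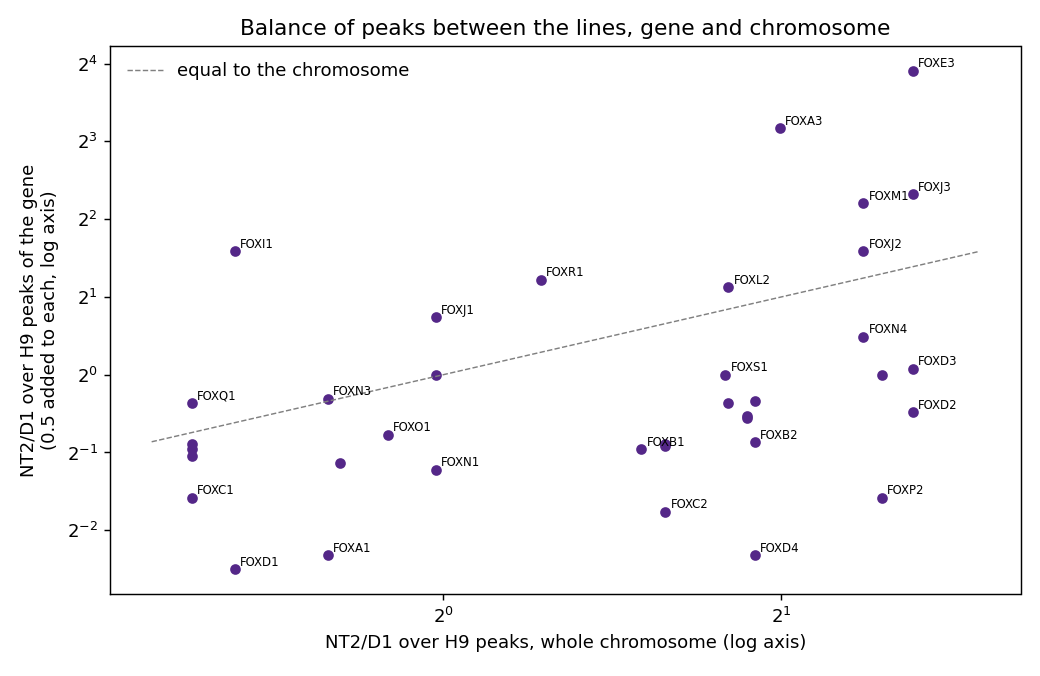
Ratio of NT2/D1 to H9 peaks at each forkhead gene (y, 0.5 added to each count) against that of its whole chromosome (x), both on log axes; some genes are named. FOXE3, FOXA3, FOXJ3 and FOXM1 lie above the line of equality and most genes below it.

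Genes that work with forkhead factors were counted in the same way. Of 19 partners and regulators, such as the AKT kinases, SMAD proteins and TLE corepressors, 2 had a region of all 3 factors in NT2/D1 (SMAD3 and USP7) and 6 in H9 (SGK1, SMAD2, SMAD3, TLE1, TLE3 and USP7). The shares of all genes were 5.62% in NT2/D1 and 17.1% in H9. USP7, a deubiquitinase that acts on FOXO proteins, had highest-scoring peaks with SOX2, OCT4 and NANOG folds of 46.84, 25.64 and 69.93 in NT2/D1 and 26.45, 12.35 and 43.19 in H9. In NT2/D1 they stood at percentiles 99.9, 99.2 and 99.97, above every peak at a forkhead gene in the same lists. SMAD3, a partner of forkhead factors in Nodal signalling, had 10 peaks of each factor in NT2/D1 and 4, 5 and 6 of SOX2, OCT4 and NANOG in H9. Of 6 FOXO target genes, none had a region of all 3 factors in NT2/D1 and CDKN1B had one in H9. Of 5 FOXM1 target genes, none had one in NT2/D1 and AURKB had one in H9. The shares of all genes to set beside both lists are again 5.62% and 17.1%.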

How the data were processed

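SOX2, OCT4 and NANOG ChIP-seq peak lists of NT2/D1 and H9 were used, 1 library per factor and line; the IgG samples were not analysed on their own. Peaks were called by the authors with MACS per library against IgG, with a p-value cutoff of 0.001, per the file headers. Coordinates are hg19 (submitters' processing notes). Which aligner and MACS version were run is not given in the sources used here. Deposited tag counts are whole ChIP tags per peak, not normalized. The authors' fold is a ratio of tags to the background expected there. The FDR was deposited in percent. The deposited score has no readable header and was used for ranks within a list only; its lowest value was 30 in every list. The FDR rose with score in the NT2/D1 SOX2 and NANOG lists (Spearman rho of 1.00 across peaks) and fell in the others. Distances run from the peak edge to the start. Tested on gene strands, the 10th column named a gene whose start the peak lies upstream of in 99.8% of 120689 cases, and the 13th a gene it lies downstream of in 99.8% of 122732.

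Regions are peaks that overlap by at least 1 bp. Shares of all genes use 19628 symbols; gene fields holding a date were left out. Starts were recovered from distances with at least 2 votes. The members and gene lists were chosen with earlier results of these data known. Genes described in full have a region of all 3 factors, 1 of the 3 highest-scoring forkhead peaks of a list, or a peak within 1 kb of the start. Python 3.11.15, pandas 2.3.3 and scipy 1.17.1 were used, and region merging was tested on simulated peaks. The alternatives were other distances, the nearer gene only, score, length and FDR limits, symbols from accessions (44 of 44 member accessions matched), stricter overlaps and exchanged NT2/D1 titles.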

Additional observations from a re-analysis of the deposited data

How the results depend on the processing

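Of 62 alternative values of the counts of forkhead genes with a peak or with a region of all 3 factors, 45 stayed within 1.5 times the reported count. Some of the 45 were fixed in advance. Exchanged titles only swap the NT2/D1 OCT4 and NANOG counts (33 and 23), and the H9 SOX2 list already had the length of the equal lists. Only forkhead genes were recounted. Apart from the 5 kb peak counts set beside all genes above, whether forkhead genes still exceed all genes under an alternative is not shown. Within 10 kb the counts for SOX2, OCT4 and NANOG in NT2/D1 were 12, 21 and 13, and a region of all 3 factors lay at 2 genes in NT2/D1 and 8 in H9. Within 5 kb they were 7, 16 and 6 in NT2/D1 and 10 and 20 for SOX2 and OCT4 in H9, with regions at 0 NT2/D1 and 7 H9 genes. These follow from fewer peaks entering. The upper 50% by score and lists of equal length (19349 peaks) each gave 18 genes for NT2/D1 SOX2. With an FDR of at most 5%, 20 genes had an NT2/D1 OCT4 peak and 1 had an NT2/D1 region. In the NT2/D1 OCT4 list, where the FDR fell with score, this limit removes lower-scoring peaks. In the NT2/D1 SOX2 and NANOG lists it removes the highest-scoring peaks. A reciprocal overlap of 50% left 5 genes with a region in NT2/D1. Symbols from accessions changed no count. No paired analysis was possible because each factor and line had 1 library. The median peak had 7 to 11 tags in the NT2/D1 lists and 32 to 46 in the H9 lists. The part of depth, IgG depth, band width, model fold setting and peak length in the counts was not tested.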
